A study of Bos taurus with 12 samples.

Results

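The type IV collagens, encoded by the 6 genes COL4A1 to COL4A6, were examined in endometrial biopsies of cows at Day 15 after estrus. Every probe that was not a control and whose annotated symbol was one of these genes was taken, and all 6 genes were found among the 17493 gene symbols of the array, each with 1 transcript. The probes numbered 14 in all, 4 for COL4A3 and 2 for each of the other genes, and 13 of them passed the filter on dim probes. The study asked how ageing affects the endometrium of the cow. Total RNA of 4 old females (OF, 13 to 14 years, nulliparous) and 4 young females (YF, 4 to 5 years, primiparous, sampled more than 1 year after calving) had been hybridized in 1 colour to a custom bovine array, 1 array per animal. All OF and YF were Holstein clones made by somatic nuclear transfer from 1 donor cow, so they represent 1 genotype, and age cannot be told apart from parity. The cycles had been synchronized, and the biopsies were intercaruncular tissue from the horn on the side of the corpus luteum. Arrays of 4 Contemporary cows, also synchronized and sampled on Day 15, were deposited with them. Their age, parity and genetic origin are not given in the sources used here. One of these, cow 1111, is marked in its label as excluded, so 3 Contemporary cows entered the comparisons between groups, while its array was kept in the correlations over 12 arrays.

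Type IV collagen forms the network at the core of every basement membrane, the sheet on which epithelia rest and which wraps vessels and smooth muscle cells. Its chains assemble into trimers: COL4A1 with COL4A2 in nearly all basement membranes, COL4A3 with COL4A4 and COL4A5 in a few specialized ones such as that of the kidney glomerulus, and COL4A5 with COL4A6 in others, among them those of smooth muscle. The genes lie in head-to-head pairs that are transcribed away from each other.

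The 3 pairs lay on 3 chromosomes, with positions from the array's annotation (UMD3.1). COL4A1 was at chr12:88876125-89009422 and COL4A2 at chr12:89112423-89165255. COL4A4 was at chr2:115971118-116104632 and COL4A3 at chr2:116131000-116291205, which left 26.4 kb between these gene models. COL4A6 was at chrX:61054247-61125754 and COL4A5 at chrX:61685327-61824307. The models of COL4A1 and COL4A2 were 103.0 kb apart and those of COL4A5 and COL4A6 560 kb apart. In the RefSeq gene order of the assembly ARS-UCD2.0, 0 protein-coding genes lay between the members of each pair.

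Each probe was 60 bases long. The members are relatives in sequence, so the probes with the longest runs shared between members are shown as the deposited array files give them. Those of COL4A3 are shown with them, and the remaining probes are not shown. Capitals mark the longest run shared between probes of 2 different members. The probes of COL4A4 and COL4A6 share a run of 24 bases, and a probe of COL4A2 shares 11 bases of that run. The COL4A3 sequences, each spotted under 2 probe names, overlap each other by 20 bases, which the capitals mark in those lines. The 2 COL4A2 probes also overlap each other, at the start of COL4A2 probe 2, which the capitals do not mark.
COL4A4 probe 1: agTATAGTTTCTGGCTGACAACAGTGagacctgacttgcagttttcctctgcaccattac
COL4A6 probe 2: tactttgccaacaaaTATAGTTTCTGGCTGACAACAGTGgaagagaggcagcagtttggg
COL4A2 probe 2: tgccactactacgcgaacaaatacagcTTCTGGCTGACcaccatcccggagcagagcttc
COL4A3 probes 1 and 2: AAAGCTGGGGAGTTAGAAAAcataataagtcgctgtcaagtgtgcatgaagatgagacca
COL4A3 probes 3 and 4: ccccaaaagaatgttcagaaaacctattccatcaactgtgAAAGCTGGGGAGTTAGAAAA
The longest run shared by any probe of COL4A3 and any probe of COL4A4 was 7 bases.

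Levels are given as log2 of the processed intensity minus the 75th percentile of the same array, so a level of 0 is that percentile and a difference of 1 is a change of 2-fold. Levels of different genes come from different probes and are not compared. Between 71.6% and 74.9% of the spots were well above background on each array. The array of the OF cow 2258 stood apart. On the first principal component of all measured transcripts, which held 41.6% of the variance, it scored 131.1 while the other 11 arrays lay between -36.4 and 36.5. The mean of 11 smooth muscle markers was 4.17 above the average of the 12 arrays in OF 2258 and 2.54 above it in OF 0234, against -1.50 to 0.15 in the other 10 animals. The smooth muscle myosin gene MYH11 was at 6.52 in OF 2258 and 5.02 in OF 0234, and at -0.95 to 2.13 in the others. The mean of 9 epithelial markers was lowest in OF 2258, at -1.92, followed by YF 1069 at -1.16, and EPCAM, the epithelial cell adhesion molecule, was at 1.10 and 2.50 in these animals against 3.50 to 4.51 in the others. Values without OF 2258 are therefore given beside those that it moved. In a bulk biopsy, fewer cells of a type and less RNA per cell cannot be told apart.

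COL4A3 and COL4A4 were the members in which OF and YF did not overlap. COL4A3 was at -2.71, -2.87, -2.81 and -6.98 in OF 0233, 0234, 0245 and 2258, and at -1.22, -2.04, -1.85 and -2.58 in YF 1069, 1070, 1072 and 1127. It was at -1.75, -1.99 and -2.20 in the Contemporary cows 1068, 1128 and 1129, and at -2.85 in cow 1111. The OF therefore held the 4 lowest places among the animals tested, with OF 2258 far under the rest, and cow 1111 lay among the OF. In OF 2258, 3 of the 4 COL4A3 probes were not well above background. The mean was -3.84 ± 2.10 (SD, n = 4) in OF, -1.92 ± 0.56 (n = 4) in YF and -1.98 ± 0.22 (n = 3) in Contemporary cows. The OF mean was 1.92 ± 0.93 (SE) lower than that of YF on the log2 scale, a fold of 3.78, with a limma p of 0.0702 and an adjusted p of 0.999.

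COL4A4, the partner of COL4A3, followed the same course. Its level was -1.42, -1.23, -1.45 and -5.31 in OF 0233, 0234, 0245 and 2258, and 0.29, -0.21, -0.17 and -1.21 in YF 1069, 1070, 1072 and 1127. The Contemporary cows 1068, 1128 and 1129 were at -0.79, -0.34 and -0.31, and cow 1111 at -1.19. All OF were again under all YF, but only by 0.02 between OF 0234 and YF 1127, and cow 1111 was close to the OF. The mean was -2.35 ± 1.97 (SD, n = 4) in OF, -0.32 ± 0.63 (n = 4) in YF and -0.48 ± 0.27 (n = 3) in Contemporary cows. The OF mean was 2.03 ± 0.88 (SE) lower than the YF mean on the log2 scale, a fold of 4.08, with a limma p of 0.0494 and an adjusted p of 0.999. These values come from COL4A4 probe 1, since probe 2 was not well above background on any of the 12 arrays. With both probes averaged and no filter on dim probes the difference was -0.96.

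**Figure D1:**
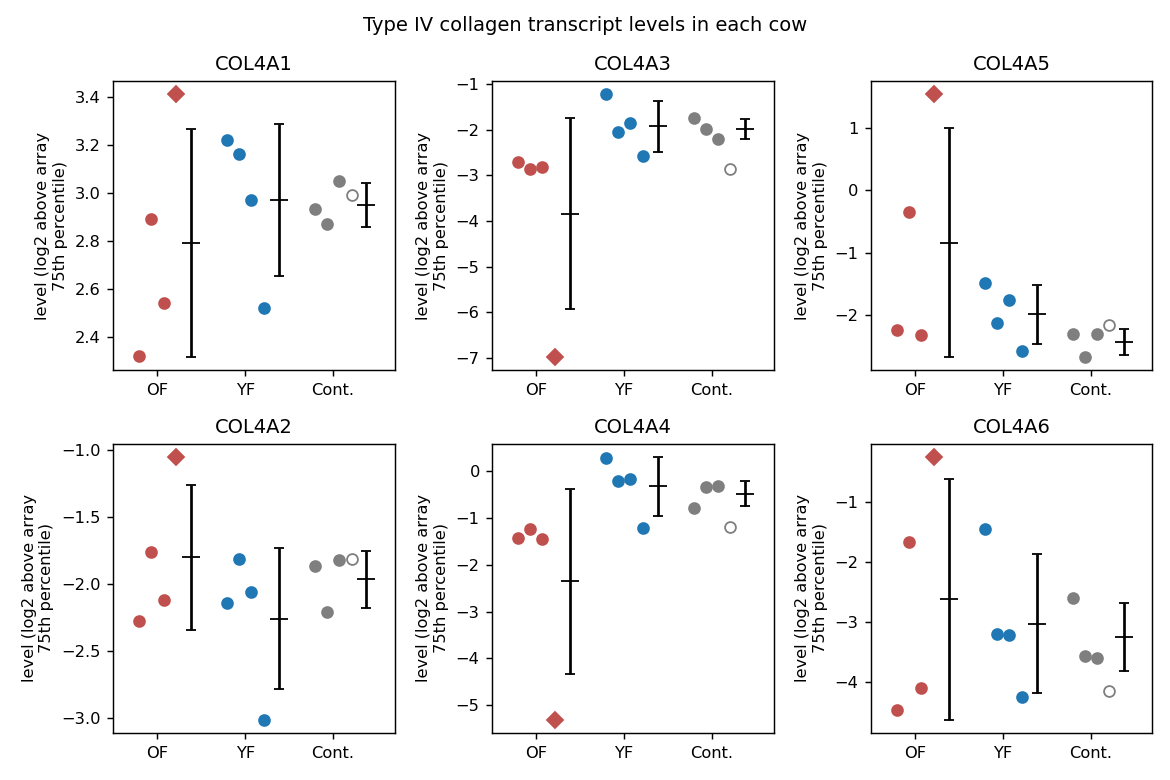
Level of each type IV collagen gene (log2 relative to the array's 75th percentile, y axis) in every cow, by group (x axis). Points are animals (red, OF; blue, YF; grey, Contemporary; the diamond is OF 2258 and the open circle cow 1111, which is not in the means), and bars are mean ± SD; all 4 OF lie under all YF for COL4A3 and COL4A4, and OF 2258 is the highest animal for the other 4 genes.

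Of the 6 members, 0 passed the limma test at an adjusted p of 0.05 in OF against YF, where 0% of the 19755 transcripts tested were called in either direction and 2.53% had an unadjusted p of at most 0.05. COL4A4 was the only member with such an unadjusted p. All OF lay under all YF in 2 of 6 members, against 0.663% of all transcripts tested. This count is a description only. The study had already named both genes from these animals, and their levels ran together (Pearson r of 0.98 over 12 arrays). Without OF 2258 the difference shrank. The separation could not be lost by leaving out an OF. COL4A3 was -2.79 ± 0.08 (SD) and COL4A4 -1.37 ± 0.12 in the remaining 3 OF. The differences from YF were then -0.87 ± 0.29 (SE) with a p of 0.0190 for COL4A3 and -1.04 ± 0.33 with a p of 0.0135 for COL4A4, folds of 1.83 and 2.06, both with a limma adjusted p of 1.0. Without that cow 1.09% of the transcripts had all OF under all YF. Leaving out OF 2258 thus lowered both the difference and its error.

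Slide and scan coincided in the array files and were the only batch found there. Slide 1, with 1 OF and 2 YF, gave OF minus YF differences of -0.86 for COL4A3 and -1.26 for COL4A4, and slide 2, with 3 OF including OF 2258 and 2 YF, gave -2.29 and -2.20. With the slide as a block in limma the differences were -1.78 and -1.86. The direction could not differ between the slides, as all OF lay under all YF for both genes. All 3 Contemporary cows compared were on slide 2, and cow 1111 was on slide 1. The Contemporary comparisons are thus confounded in part with slide. Within slide 2, Contemporary minus YF was -0.08 for COL4A3 and -0.02 for COL4A4, and Contemporary minus OF was 2.21 and 2.17.

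The rank-based FCROS method, which the study had used, was coded here from its description, so its ratios are not those of the study. It called 2 of the 6 members in OF against YF, both under-expressed in OF. The study listed both among its most under-expressed genes in OF. It also reported lower COL4A3 in OF by RT-qPCR, in a larger set that held these animals. FCROS as coded here called 2.06% of the 26323 transcripts under-expressed and 2.88% over-expressed with an f-value within 0.025 of either end of its scale and a fold of 1.5. COL4A3 had an OF to YF ratio of 0.394 with an f-value of 0.00365. COL4A4, with both probes averaged, had a ratio of 0.569 and an f-value of 0.00872. Leaving out each animal in turn, COL4A3 was called in 8 of 8 settings and COL4A4 in 7 of 8, the exception being the setting without OF 2258, where its ratio was 0.696. COL4A5 was called over-expressed in 2 of 8 settings, without OF 0233 (ratio 4.94, f-value 0.981) and without OF 0245 (ratio 4.96, f-value 0.990). With the dim COL4A4 probe left out, the ratio was 0.349, and 0.455 without OF 2258, and both were called.

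The Contemporary means of this pair lay close to those of YF. The Contemporary minus YF difference was -0.06 ± 0.31 (SE; 95% interval -0.78 to 0.66) for COL4A3 and -0.16 ± 0.34 (-0.95 to 0.64) for COL4A4, both with a limma adjusted p of 1.0, so differences up to those limits are possible. In this comparison 0 of the 6 members were called by limma, with 0% of the 19993 transcripts called and 3.23% at an unadjusted p of at most 0.05. The Contemporary cows lay above all YF in 0 of 6 members and below all YF in 0 of 6, against 1.69% and 2.27% of the transcripts. Against OF, the Contemporary cows were higher by 1.86 ± 1.03 and 1.87 ± 0.98, with an adjusted p of 0.911 for both. All 3 Contemporary cows lay above all OF in these 2 of 6 members, against 3.08% of the 19914 transcripts tested, and below all OF in 0 of 6, against 2.72%. Again 0 members were called, as were 0% of the transcripts, with 4.59% at an unadjusted p of at most 0.05. Without OF 2258 the differences were 0.81 ± 0.18 with a p of 0.00278 and 0.89 ± 0.19 with a p of 0.00267, and the limma adjusted p was 0.427 and 0.422. These comparisons share the OF animals with the comparison of OF and YF. Cow 1111, which did not enter these comparisons, lay within the range of the OF for COL4A3 and just above the highest OF for COL4A4.

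COL4A1 and COL4A2, the chains found in nearly all basement membranes, varied less. COL4A1 was at 2.32, 2.89, 2.54 and 3.41 in OF 0233, 0234, 0245 and 2258 and at 3.22, 3.16, 2.97 and 2.52 in YF 1069, 1070, 1072 and 1127. The Contemporary cows 1068, 1128 and 1129 were at 2.93, 2.87 and 3.05, and cow 1111 at 2.99. The highest and the lowest animal were both OF, and all groups overlapped. The mean was 2.79 ± 0.48 (SD, n = 4) in OF, 2.97 ± 0.32 (n = 4) in YF and 2.95 ± 0.09 (n = 3) in Contemporary cows. OF minus YF was -0.18 ± 0.26 (SE; 95% interval -0.78 to 0.43), with a limma adjusted p of 0.999, and -0.38 ± 0.22 without OF 2258.

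COL4A2 was at -2.27, -1.76, -2.12 and -1.05 in the same order of OF and at -2.14, -1.81, -2.06 and -3.01 in that of YF. The Contemporary cows 1068, 1128 and 1129 were at -1.86, -2.21 and -1.82, and cow 1111 at -1.81. OF 2258 was again the highest animal and YF 1127 the lowest, and the groups overlapped. OF minus YF was 0.46 ± 0.34 (95% interval -0.31 to 1.23) with a limma adjusted p of 0.999, and 0.21 ± 0.29 without OF 2258. Its sign differed between the slides, at -0.19 within slide 1 and 0.88 within slide 2. Contemporary minus YF was -0.02 ± 0.20 for COL4A1 and 0.29 ± 0.29 for COL4A2, both with an adjusted p of 1.0. Within slide 2, which held all the Contemporary cows compared, these differences were 0.08 and 0.61. For COL4A2 the order of the means was OF, Contemporary and YF, from -1.80 to -2.26, and neighbouring groups differed by less than the SD within YF.

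COL4A5 was high in the 2 OF that had the high smooth muscle markers. It was at -2.24, -0.34, -2.32 and 1.54 in OF 0233, 0234, 0245 and 2258, while YF 1069, 1070, 1072 and 1127 were at -1.49, -2.12, -1.76 and -2.58. The Contemporary cows 1068, 1128 and 1129 were at -2.30, -2.67 and -2.31, and cow 1111 at -2.16. The other 2 OF lay among the YF and Contemporary cows, and both COL4A5 probes gave this order. The mean was -0.84 ± 1.83 (SD, n = 4) in OF, -1.99 ± 0.47 (n = 4) in YF and -2.43 ± 0.22 (n = 3) in Contemporary cows. OF minus YF was 1.14 ± 0.81 (95% interval -0.70 to 2.99) with a limma adjusted p of 0.999, and 0.35 ± 0.50 without OF 2258. Within slide 1 it was -0.38 and within slide 2 it was 1.68. Contemporary minus OF was -1.59 ± 0.91 with a limma adjusted p of 0.911, and -0.79 ± 0.52 without OF 2258.

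The part of smooth muscle in the COL4A5 values was not tested. All 11 smooth muscle markers had a higher mean in OF than in YF, with a median log2 difference of 2.08 against 0.01 over all transcripts tested, and 0 of 11 were called by limma. The mean over the markers ran from -1.03 to 4.17 in OF, from -1.50 to 0.15 in YF and from -0.93 to -0.41 in Contemporary cows. No defining marker was missing, since MYH11 and DES, the muscle intermediate filament gene, were well above background on all 12 arrays. OF 2258, with the highest muscle mean, 4.17, and the lowest epithelial mean, -1.92, was the lowest animal for COL4A3, at -6.98. OF 0234, with a muscle mean of 2.54, was at -2.87 for COL4A3. OF 0233 and OF 0245 were at -2.71 and -2.81, with muscle means of -1.03 and -0.22. The epithelial mean was -0.20 in OF 0234 and 0.48 and 0.91 in OF 0233 and OF 0245. YF 1069, the lowest for epithelial markers after OF 2258, was the highest animal for COL4A3 and COL4A4. The part of muscle or epithelium in the COL4A3 and COL4A4 values was not tested.

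**Figure D2:**
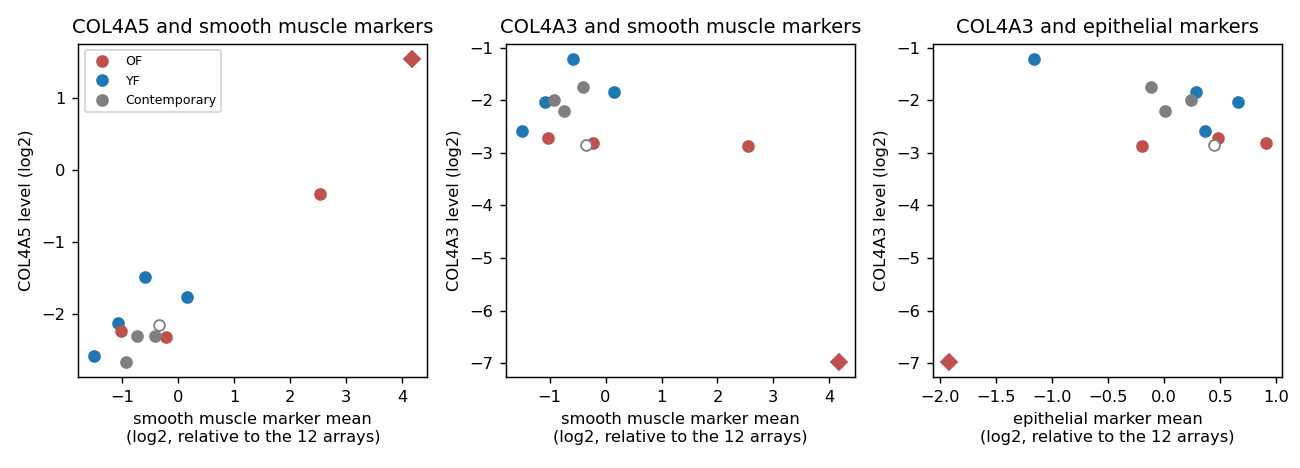
Level of COL4A5 (left) and COL4A3 (middle and right) in each cow (log2 relative to the array's 75th percentile, y axes) against the mean of the smooth muscle or epithelial markers (log2 relative to the average of the 12 arrays, x axes). Colours and symbols are red for OF, blue for YF, grey for Contemporary, a diamond for OF 2258 and an open circle for cow 1111; OF 2258 and OF 0234 have the highest muscle marker means, 4.17 and 2.54, and the highest COL4A5 levels, while COL4A3 is -2.87 in OF 0234 and -6.98 in OF 2258.

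COL4A6, the partner of COL4A5 on the X chromosome, had the widest spread among the other 11 animals. It was at -4.46, -1.66, -4.10 and -0.24 in OF 0233, 0234, 0245 and 2258, and at -1.44, -3.19, -3.21 and -4.25 in YF 1069, 1070, 1072 and 1127. The Contemporary cows 1068, 1128 and 1129 were at -2.59, -3.57 and -3.59, and cow 1111 at -4.15. High animals occurred in OF and in YF, so the groups overlapped fully. OF minus YF was 0.41 ± 0.99 (95% interval -1.85 to 2.68) with a limma adjusted p of 0.999, and without OF 2258 it turned to -0.38 ± 0.82. Its sign also differed between the slides, at -0.89 within slide 1 and 0.73 within slide 2. The probes did not give the same value: OF minus YF was 1.10 on probe 1 and -0.28 on probe 2, the one that shares the 24 bases with COL4A4 probe 1. In OF 2258, where the COL4A4 probe fell to -5.31, COL4A6 probe 2 was at -1.45, its highest value of the 12 arrays. Hybridization of either transcript to the other's probe was not tested.

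Over the 12 arrays the SD of the log2 level was 1.46 for COL4A3, 1.44 for COL4A4, 1.20 for COL4A5 and 1.31 for COL4A6, against 0.31 for COL4A1 and 0.45 for COL4A2. The median SD of all measured transcripts was 0.326. Without OF 2258 the SD fell to 0.54 for COL4A3, 0.60 for COL4A4 and 0.65 for COL4A5, and stayed at 1.02 for COL4A6, where 2.88% of all transcripts had a larger one. COL4A6 was thus the member whose spread depended least on that cow among the 4 with a large SD.

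**Figure D3:**
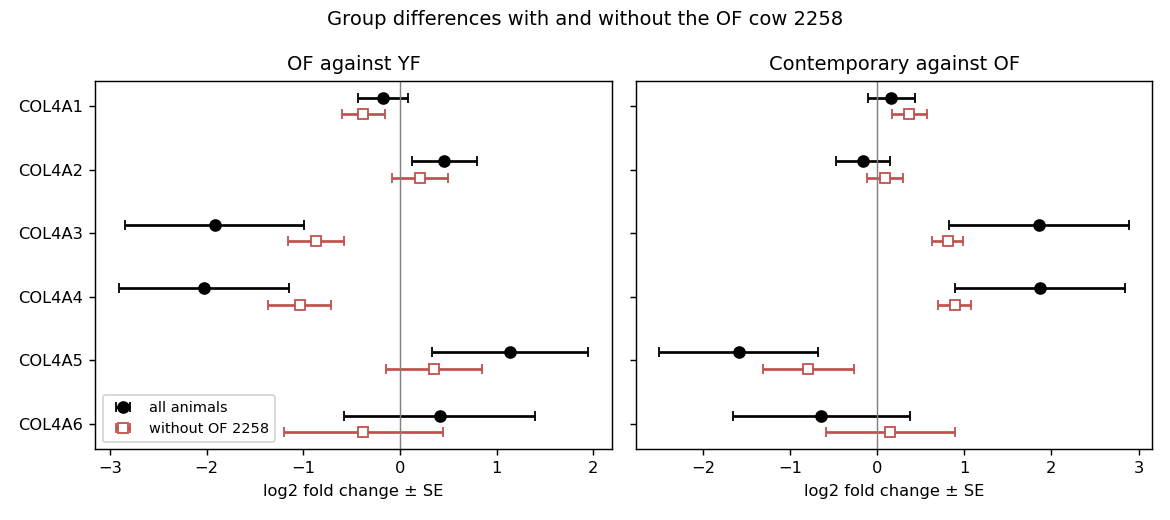
Log2 fold change ± SE from limma (x axis) of each type IV collagen gene (y axis) for OF against YF (left) and Contemporary against OF (right), with all animals (filled circles) and without OF 2258 (open squares). Without that cow COL4A3 and COL4A4 are at -0.87 and -1.04 in OF against YF, while COL4A6 crosses 0.

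The levels of the head-to-head partners were then correlated over the 12 arrays, within a family of 15 gene pairs. COL4A3 and COL4A4 had a Pearson r of 0.98 (permutation p 3e-05, adjusted 0.00045) and a Spearman rho of 0.83 (permutation p 0.0013, adjusted 0.0195). Without OF 2258, r was 0.90 (permutation p 0.00055) and rho 0.78 (permutation p 0.00656) over 11 arrays. Within slide 2, r was 0.99 (exact permutation p 0.00107, n = 8) and rho 0.88 (exact permutation p 0.00724), and without OF 2258 they were 0.88 (exact permutation p 0.0115, n = 7) and 0.82 (exact permutation p 0.0341). Slide 1 held 4 arrays, too few for a value. On deviations from the group means, r was 0.98, and 0.80 without OF 2258. Without the 2 arrays farthest from the median of COL4A3, OF 2258 and YF 1069, r was 0.85 with a permutation p of 0.00854, adjusted 0.064.

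COL4A5 and COL4A6 had an r of 0.86 (permutation p 0.00076, adjusted 0.0057) and a rho of 0.69 (permutation p 0.017, adjusted 0.0791). Without OF 2258 they were 0.75 (permutation p 0.00761) and 0.59 (permutation p 0.0609). Without OF 2258 and OF 0234, the 2 arrays farthest from the COL4A5 median, r was 0.67 with an adjusted permutation p of 0.182. Within slide 2, r was 0.87 (exact permutation p 0.0036, n = 8) and rho 0.67 (exact permutation p 0.0831). COL4A1 and COL4A2 had an r of 0.72 (permutation p 0.00823, adjusted 0.0309) and a rho of 0.65 (permutation p 0.0264, adjusted 0.0791). Without OF 2258 they were 0.59 (permutation p 0.0539) and 0.55 (permutation p 0.0887), and without OF 2258 and OF 0233 r was 0.63, with an adjusted permutation p of 0.182. Within slide 2, r was 0.74 (exact permutation p 0.0401, n = 8) and rho 0.76 (exact permutation p 0.0368), and on deviations from the group means r was 0.94, and 0.89 without OF 2258. On the same deviations COL4A1 had an r of 0.90 with COL4A5 and 0.88 with COL4A6, both 0.78 without OF 2258. With COL4A3 and COL4A4 its r was -0.59 and -0.50, or 0.40 and 0.68 without that cow.

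Among the 12 relations between genes of different pairs, COL4A1 with COL4A6 had an r of 0.75 (permutation p 0.0053, adjusted 0.0265), COL4A2 with COL4A5 0.72 (permutation p 0.0147, adjusted 0.0442) and COL4A2 with COL4A6 0.66 (permutation p 0.0183, adjusted 0.0458). Their rho values were 0.71, 0.65 and 0.56, with adjusted permutation p of 0.0791, 0.0791 and 0.133. Without OF 2258 these r were 0.64, 0.41 and 0.40, and without the 2 farthest arrays they were 0.55, 0.35 and 0.26. COL4A1 with COL4A4 went the other way, from an r of -0.19 over 12 arrays to 0.80 without OF 2258 (permutation p 0.00276, adjusted 0.0207) and 0.77 without the 2 arrays farthest from the COL4A1 median (adjusted permutation p 0.064). With cow 1111 left out, r was 0.71 for COL4A1 with COL4A2, 0.98 for COL4A3 with COL4A4 and 0.87 for COL4A5 with COL4A6. COL4A3 and COL4A5, which can share a trimer, had an r of -0.81 (permutation p 0.0382, adjusted 0.0818) but a rho of -0.22 (permutation p 0.483, adjusted 0.719). Without OF 2258 this r was -0.05, so the opposite course of COL4A5 and its potential partner COL4A3 rested on that cow.

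**Figure D4:**
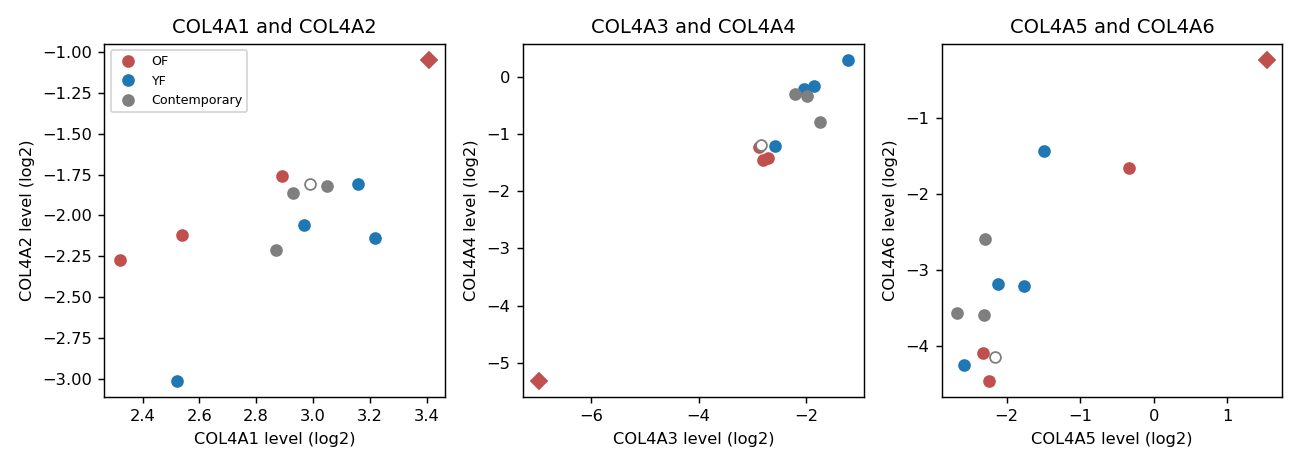
Levels (log2 relative to the array's 75th percentile) of the 2 genes of each head-to-head pair, the first on the x axis and the second on the y axis, 1 point per cow (red, OF; blue, YF; grey, Contemporary; diamond, OF 2258; open circle, cow 1111). COL4A3 and COL4A4 lie along 1 line also among the 11 cows other than OF 2258 (r of 0.90).

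Partners were also ranked against the 17241 other transcripts with a symbol. COL4A4 was the transcript with the highest r to COL4A3, and COL4A3 that with the highest r to COL4A4. Without OF 2258, COL4A4 held rank 6 for COL4A3 and COL4A3 rank 4 for COL4A4. The partners in the other pairs ranked lower: COL4A2 was at rank 379 for COL4A1 and COL4A1 at rank 661 for COL4A2, or 1032 and 1030 without OF 2258. COL4A6 was at rank 529 for COL4A5 and COL4A5 at rank 611 for COL4A6, or 269 and 1232 without that cow. These ranks are descriptions over 12 arrays that share the group differences and OF 2258.

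The genes whose levels were most like COL4A3 and COL4A4 were, in order of mean r over 12 arrays, CDC25C, CHST9, SCARA5, SLC15A3 and PLAT, with a mean r of 0.96 to 0.97. CHST9, a sulfotransferase, had group means of -1.89 in OF, -0.67 in YF and -0.62 in Contemporary cows. PLAT, the tissue plasminogen activator, had 3.56, 4.55 and 4.67 in these groups and 1.89 in OF 2258. Without OF 2258 the list was CDH11, C1QTNF6, FST, CD38 and PRDM1, with a mean r of 0.87 to 0.91, and shared 0 genes with the first. FST, the activin-binding protein follistatin, was at 1.55 in OF, 2.95 in YF and 2.78 in Contemporary cows.

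For COL4A5 and COL4A6 the list was MRVI1, CCDC136, SH3BGR, MAOB and MRGPRF, each with a mean r of 0.95. MRVI1, a partner of the inositol trisphosphate receptor known from smooth muscle, was at 3.22 in OF 2258 against group means of 0.94 in OF, -0.17 in YF and -0.25 in Contemporary cows. MRVI1, MAOB and MRGPRF stayed in the list without OF 2258, with THSD4 and THBS3 beside them and a mean r of 0.90 to 0.91. For COL4A1 and COL4A2 it was PFKP, NAGLU, MCAM, LOXL1 and FHOD1, with a mean r of 0.85 to 0.87. MCAM, an adhesion molecule of vessel walls, was at 1.65 in OF 2258 and had group means of 0.47 in OF, 0.14 in YF and 0.36 in Contemporary cows. Without OF 2258, PFKP and NAGLU stayed, joined by SLC27A1, AXL and DMKN, at 0.80 to 0.82.

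The difference between the log2 levels of the partners within an array was compared between groups next, in 9 tests adjusted together. The size of this difference within an array has no meaning, as different probes are set against each other, but its shift between groups shows unequal change of the 2 genes. For COL4A1 minus COL4A2 it was 4.59, 4.65, 4.66 and 4.46 in OF 0233, 0234, 0245 and 2258 and 5.36, 4.97, 5.03 and 5.53 in YF 1069, 1070, 1072 and 1127. The Contemporary cows 1068, 1128 and 1129 were at 4.79, 5.08 and 4.87, and cow 1111 at 4.80. All OF, OF 2258 included, lay under every other animal.

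The mean of COL4A1 minus COL4A2 was 4.59 ± 0.09 (SD, n = 4) in OF and 5.22 ± 0.27 (n = 4) in YF, a difference of -0.63 ± 0.14 (SE) with an exact permutation p of 0.0286, the smallest possible with 4 against 4, and an adjusted p of 0.129. In Contemporary cows it was 4.91 ± 0.15 (n = 3), which was 0.32 ± 0.10 above OF, with an exact permutation p of 0.0286 and an adjusted p of 0.129. Neither passed the threshold after adjustment. A pair could not pass it alone, since 0.0286 is the smallest p possible at these group sizes and 9 tests were adjusted together. At that smallest p, the adjusted p depends only on how many of the 9 tests reach it, so it does not decide here. The OF minus YF difference was -0.34 within slide 1 and -0.88 within slide 2, and it lay between -0.72 and -0.53 when each animal was left out in turn.

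COL4A3 minus COL4A4 was -1.49 ± 0.20 (SD, n = 4) in OF, -1.60 ± 0.20 (n = 4) in YF and -1.50 ± 0.48 (n = 3) in Contemporary cows, and OF 2258, at -1.67, was within the range of the YF, -1.83 to -1.37. OF minus YF was 0.11 ± 0.14 (SE) with an exact permutation p of 0.429 and an adjusted p of 0.643. With 3 of the 4 COL4A3 probes not well above background in OF 2258, the value of that cow does not measure the difference between the genes. With normexp background correction OF minus YF was 0.50 (exact permutation test, adjusted p 0.103) and with the brightest probe 0.36 (adjusted p 0.309). It was 0.40 within slide 1 and -0.09 within slide 2. COL4A5 minus COL4A6 was 1.77 ± 0.37 (n = 4) in OF, 1.04 ± 0.76 (n = 4) in YF and 0.83 ± 0.50 (n = 3) in Contemporary cows. OF minus YF was 0.73 ± 0.42 with an exact permutation p of 0.143 and an adjusted p of 0.309, and Contemporary minus OF -0.95 ± 0.34 with an exact permutation p of 0.0571 and an adjusted p of 0.171. With the brightest probe these differences were 1.36 and -1.45, and with normexp 0.64 and -0.82. Each of these had an adjusted p of 0.0643 in the exact permutation test.

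**Figure D5:**
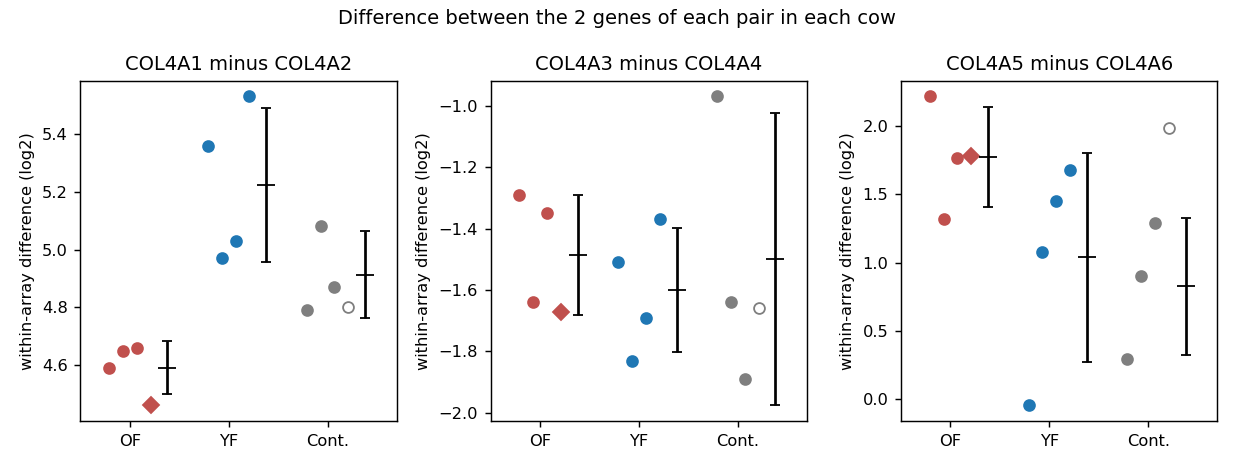
Difference between the log2 levels of the 2 genes of each pair within an array (y axis) in every cow, by group (x axis). Points are animals (red, OF; blue, YF; grey, Contemporary; diamond, OF 2258; open circle, cow 1111, not in the means) and bars are mean ± SD; for COL4A1 minus COL4A2 the 4 OF lie between 4.46 and 4.66 and the 4 YF between 4.97 and 5.53.

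Genes that act on type IV collagen were read from lists chosen beside the members. Of the enzymes and chaperones that hydroxylate, fold, export and crosslink the chains, 18 were tested in OF against YF, with 13 higher, 5 lower, 0 called by limma and a median difference of 0.09 against 0.01 over all transcripts. P4HA3, a prolyl hydroxylase subunit, had the largest difference, -1.0 ± 0.30 (SE), with a limma adjusted p of 0.999. The difference was -0.75 without OF 2258. All OF lay under all YF in this 1 of the 18 genes, against 0.663% of all transcripts tested. LOXL2, which crosslinks type IV collagen, differed by -0.41 ± 0.43, or -0.59 without OF 2258, and P4HA1, another hydroxylase subunit, by 0.29 ± 0.29, or 0.03 without that cow.

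Of 21 other basement membrane genes tested, 11 were higher and 10 lower in OF, with 0 called and a median of 0.04. FREM1, an extracellular matrix protein of the epithelial basement membrane, had a mean of -5.35 in OF and -7.47 in YF, with a limma adjusted p of 0.999 and all OF above all YF, which held for 0.911% of all transcripts tested. It passed the filter on dim probes through OF alone, since 2 of its 4 probes were well above background on every OF array and 0 on every YF or every Contemporary array, so its size of difference and its separation are a description only. SMOC1, a calcium-binding matrix protein, differed by 2.0 ± 0.85, or 1.20 without OF 2258, and COL15A1, a collagen of the outer face of basement membranes, by 0.66 ± 0.67, or 0.00 without that cow. Of 7 receptors, 4 were higher and 3 lower, with 0 called. ITGA1, the integrin subunit that binds type IV collagen, differed by 0.73 ± 0.36, ITGAV by -0.56 ± 0.53 and ITGB1 by 0.15 ± 0.24. Without OF 2258 these differences were 0.39, -0.90 and -0.07. Of 8 proteases and inhibitors, 4 were higher and 4 lower, with 0 called, and MMP2, the gelatinase that cleaves type IV collagen, differed by -0.44 ± 0.33, MMP14 by -0.22 ± 0.21 and MMP9 by 0.22 ± 0.16. In the comparisons of Contemporary cows with YF and with OF, 0 genes of these 4 lists were called.

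Markers of the other cell types were read beside these values. The vascular markers, 10 endothelial genes, had means of -0.21 to -0.05 in OF, -0.88 to 0.18 in YF and -0.06 to 0.67 in Contemporary cows, and YF 1127, the lowest animal for COL4A2, was also the lowest there, with PECAM1 at -1.21. The 8 stromal markers ran from -0.46 to 0.41 in OF and -0.28 to 0.65 in YF, the 5 pericyte markers measured from -0.50 to 0.52 and -0.81 to 0.53, the 9 leukocyte markers measured from -0.46 to 0.38 and -0.35 to 0.33, and the 7 uterine markers from -0.14 to 0.58 and -0.24 to 0.24. The defining markers CDH5, PDGFRA, FOXA2 and PTPRC were well above background on all 12 arrays. The part of these cell types in the type IV collagen values was not tested.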

How the data were processed

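RNA of 12 endometrial biopsies was hybridized to 1-colour (Cy-3) arrays on 2 slides. The authors deposited the Feature Extraction 10.7.3.1 output, in which the processed intensity of each spot is corrected for background and not normalized between arrays. Flags for spots well above background were taken from the same deposited files. From there, log2 of the intensity minus the array's 75th percentile was taken, 66 probes with an outlier flag were left out, and probes well above background on every array of at least 1 compared group were averaged per transcript. Groups came from the sample titles, and the replicate is the animal. Intensities carry no counts, so precision depends on how many arrays there are. Groups were compared in pairs with limma 3.58.1 in R 4.3.3 (Benjamini-Hochberg over all transcripts tested, threshold 0.05), tested on simulated data. Within-array differences were compared with exact two-sided permutation tests, and correlations with 100000 resamples, in scipy 1.17.1. FCROS (trim 0.25) was coded from its published description and run on all transcripts. Genes named were the 6 members, the 5 transcripts most like each pair, and the 3 largest differences of each list. Symbols came from the array's annotation, completed through RefSeq. Alternatives were other normalizations, background correction, the brightest probe, no filter, the slide as a block, 3 groups in 1 fit, array weights, cow 1111 included and each animal left out. The members and lists were chosen with earlier results of these data known.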

Additional observations from a re-analysis of the deposited data

Results flagged for a closer look

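Among 27 sets of 4 values, 3 had an animal far from the others, where chance gives about 1 in 20. The sets are not independent, since they come from the same animals and COL4A3 and COL4A4 ran together, so the rate of 1 in 20 is only a rough guide. OF 2258 was far from the other OF for COL4A3, at -6.98 against -2.87 to -2.71, and for COL4A4, at -5.31 against -1.45 to -1.23. The gap was 0.963 and 0.946 of the whole range of the group. For COL4A2, the Contemporary cow 1128, at -2.21, was far from the other Contemporary cows, at -1.86 to -1.81, with cow 1111 counted among them. The gap was 0.870 of the range, although the distance itself was small.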

How the results depend on the processing

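No paired analysis was possible because the animals of the groups carry different numbers. The number of members called by limma stayed at 0 in all 51 settings tried over the 3 comparisons, and FCROS called 2. The differences of COL4A3 and COL4A4 between OF and either other group kept their direction in all 72 recomputed values. Those that only left out an animal or kept 1 slide could not change it, as the OF did not overlap the group compared. The values of single COL4A3 probes among them were added after the data were seen. When each animal was left out in turn, OF minus YF lay between -2.30 and -0.87 for COL4A3 and between -2.40 and -1.04 for COL4A4. With normexp background correction they were -1.05 and -1.55, and with array weights -1.05 and -1.12. Of 318 fold changes of single genes, 15 changed sign. In OF against YF these were COL4A1 within slide 2 (0.00) and COL4A6 without OF 2258 (-0.38) or on probe 2 alone (-0.28, an alternative added after the data were seen). In Contemporary against YF, COL4A1 changed sign with median centring (0.03), with the slide as a block (0.08), within slide 2 (0.08) and without YF 1069, YF 1070 or Contemporary 1128, COL4A3 without YF 1069 or Contemporary 1129, and COL4A4 and COL4A6 without YF 1069. In Contemporary against OF, COL4A2 and COL4A6 did so without OF 2258. The OF minus YF differences within slide 1, which rest on 1 OF, were not among the 318. With each animal left out, COL4A6 ranged from -0.38 to 1.03 in OF against YF, from -0.64 to 0.30 in Contemporary against YF and from -1.25 to 0.15 in Contemporary against OF. COL4A1, COL4A3 and COL4A4 ranged from -0.17 to 0.07, -0.28 to 0.18 and -0.45 to 0.05 in Contemporary against YF, and COL4A2 from -0.32 to 0.09 in Contemporary against OF. Of 99 recomputed within-pair differences, 8 changed sign. In OF against YF, COL4A3 minus COL4A4 was 0.50 with normexp and 0.36 with the brightest probe, against 0.11, and in Contemporary against OF -0.41 with normexp. It was 0.01 in Contemporary against OF with quantile normalization and between -0.28 and 0.18 with each animal left out, and in Contemporary against YF it was between -0.17 and 0.29. COL4A5 minus COL4A6 in Contemporary against YF was 0.08 with cow 1111 included and between -0.58 and 0.05 with each animal left out. The correlations past the threshold lost it without the 2 farthest arrays, at 0.63 for COL4A1 with COL4A2, 0.85 for COL4A3 with COL4A4 and 0.67 for COL4A5 with COL4A6, and the first also without OF 2258, at 0.59. They kept it with cow 1111 left out, an alternative added after the data were seen. The cause was not tested. Signal over background limits COL4A3 in OF 2258 and the second COL4A4 probe.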
